A study of Mus musculus with 20 samples.

Results

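The small intestine libraries of WT and Nsun6-KO mice fell into a proximal and a distal pair, and the RNA differences between these pairs are described here. Replicate 1 of both genotypes carried the ileal gene Fabp6 at more than 1000 counts and was taken as distal, whereas replicate 2 of both genotypes carried the duodenal gene Pdx1 at more than 100 counts and was taken as proximal. All 4 small intestine libraries of the 20 libraries in the series were placed in this way. The Fabp6 counts were 234340 in WT and 172664 in Nsun6-KO for the distal libraries and 6 and 10 for the proximal ones, and the Pdx1 counts were 2352 and 1580 for the proximal libraries and 0 in both distal ones. No library lay near either threshold. The submitters' labels name the organ and the genotype but no stretch of intestine, so that the segments rest on the measured counts alone. Because the libraries were sorted by their own counts, every proximal to distal difference below is a description of these libraries and carries no test.

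The series sequenced poly(A)-selected RNA from 5 organs (heart, kidney, liver, spleen and small intestine) of 8-week-old female C57BL/6J mice, with 2 libraries for each organ and genotype. The WT mice were unmodified, and the Nsun6-KO mice lacked exons 3 and 4 of Nsun6 in the whole body after CRISPR/Cas9 deletion. Nsun6 encodes an enzyme that places 5-methylcytosine on RNA. No treatment is named for either group, and no source states whether the libraries of one number came from the same animal or how many founder lines the knockout mice derived from. Whole pieces of frozen intestine were ground, so that each library mixes epithelium, immune cells, muscle and attached tissue, and fewer cells of a type and less RNA per cell cannot be told apart.

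The small intestine changes its work along its length. The duodenum receives acid from the stomach and enzymes and bile from the pancreas and liver, and its enterocytes take up iron, calcium, folate, sugars and fat. The ileum recovers bile acids and vitamin B12, holds more Paneth cells, which secrete antimicrobial peptides, and carries the larger lymphoid patches. Position is held by transcription factors: Gata4 and Pdx1 are expressed in the upper intestine, Hox genes of the higher numbers are expressed towards the tail end of the body axis, and Gata4 is known to keep ileal bile acid genes silent in the jejunum. Bile acids taken up in the ileum bind the nuclear receptor encoded by Nr1h4, which induces Fabp6 and Fgf15.

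The promoters of 2 proximal and 2 distal genes with very large differences are shown because they carry short sequence words that intestinal transcription factors are known to read. Each sequence runs 5′ to 3′ on the strand of its gene, ends just before the RefSeq start site or the start of the counted gene model, whichever lies further upstream, and is taken from RefSeq on GRCm38.p6. Capitals mark matches on either strand to any of 6 words. Factors of the Gata family are known to read AGATAA, and those of the Cdx family CAATAAA. Many homeodomain factors read TAATTA, whereas the sites of Hnf1 factors contain GTTAAT and those of Hnf4 factors contain CAAAGT. Other nuclear receptors read sites that contain AGGTCA. All 4 genes lie on the minus strand. The lactase promoter at chr1:128328319-128328568 held AGATAA at −90 and its reverse complement at −101, counted from the start site. The Tmprss15 promoter at chr16:79091098-79091347 held the reverse complement of GTTAAT at −44 and AGGTCA at −171. The Slc10a2 sequence at chr8:5105352-5105537 held TAATTA at −222 and −164, CAATAAA at −175 and the reverse complement of GTTAAT at −217, the last of which shares a base with the first TAATTA. The Fabp6 promoter at chr11:43601563-43601812 held the reverse complement of CAAAGT at −61. A match is only the presence of these letters.
Lct: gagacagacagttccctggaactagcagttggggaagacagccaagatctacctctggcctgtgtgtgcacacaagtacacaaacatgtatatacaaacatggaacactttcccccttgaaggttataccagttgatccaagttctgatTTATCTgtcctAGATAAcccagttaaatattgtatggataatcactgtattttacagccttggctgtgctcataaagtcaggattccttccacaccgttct
Tmprss15: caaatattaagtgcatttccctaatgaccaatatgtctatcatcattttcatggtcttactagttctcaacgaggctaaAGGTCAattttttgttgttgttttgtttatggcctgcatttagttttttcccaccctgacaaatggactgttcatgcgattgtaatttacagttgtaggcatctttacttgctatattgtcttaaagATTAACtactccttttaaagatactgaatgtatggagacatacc
Slc10a2: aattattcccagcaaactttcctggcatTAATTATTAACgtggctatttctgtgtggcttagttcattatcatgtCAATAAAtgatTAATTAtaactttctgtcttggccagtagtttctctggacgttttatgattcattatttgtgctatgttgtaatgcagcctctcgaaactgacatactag
Fabp6: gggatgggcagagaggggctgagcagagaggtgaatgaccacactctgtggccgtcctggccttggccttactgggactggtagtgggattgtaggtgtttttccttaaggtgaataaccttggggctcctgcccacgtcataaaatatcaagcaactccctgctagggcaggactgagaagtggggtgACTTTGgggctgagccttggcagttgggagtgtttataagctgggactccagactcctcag

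Depth was similar in the 4 libraries. The totals over genes were 28391003 counts for the proximal WT library, 26414043 for the proximal Nsun6-KO library, 32121286 for the distal WT library and 27240407 for the distal Nsun6-KO library. The counts are of single reads, since even values outnumbered odd ones at the low end (7125 values of 2 against 3708 values of 1 and 1825 values of 3), so that 1 fragment often gives 2 counts. Values are given below as CPM, counts scaled to 1000000 per library after TMM factors, with the WT library first and the Nsun6-KO library second in each segment, and levels of different genes are compared only per transcript length (TPM). Segment, which coincides with the replicate number, ordered the libraries, and genotype did not. Across 17680 genes, log2 CPM correlated with r = 0.961 between the proximal libraries and r = 0.924 between the distal ones, against 0.871 to 0.885 for the 4 mixed pairs.

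Certain libraries stood apart within their segment. The proximal WT library carried genes of the stomach and of the Brunner glands of the upper duodenum, with Tff2 at 2579 CPM against 2.61 CPM in the proximal Nsun6-KO library. The distal WT library carried B cell genes at a summed 847 CPM against 39.2 to 178.8 CPM in the other 3. The distal Nsun6-KO library was low in MHC class II genes (89.9 CPM against 1030.1 to 2317 CPM), low in T cell genes (91.9 CPM against 699 to 1410.0 CPM) and high in genes of tuft cells and smooth muscle. Genes that follow these cells therefore differ between libraries of one segment, and their values are given for each library in turn.

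A gene was called higher in a segment when each of its 2 libraries exceeded each library of the other segment by more than 2-fold on the log2 CPM scale, with a prior count of 2. By this rule 1050 of 17680 genes were higher in the proximal libraries (5.94%) and 973 were higher in the distal libraries (5.5%). These shares are the background for every list count below with no library left out. For list counts without a library, the background is the larger count of that setting, given below, out of 17680 genes. Past 10-fold there were 150 proximal and 123 distal genes, and past 100-fold 22 and 19. Of the proximal genes 187 stayed below 10 counts in both distal libraries, and of the distal genes 342 stayed below 10 counts in both proximal libraries, so that these genes passed the filter on low counts only through the segment where they were high. The proximal genes held 23.9% and 23.6% of all counts in the proximal WT and Nsun6-KO libraries and 4.51% and 4.92% in the distal ones. The distal genes held 12.2% and 9.76% of the counts in the distal libraries and 1.55% and 1.26% in the proximal ones. Leaving out a library loosens the rule, because a segment is then held by 1 library: the proximal count was then 2066 without distal WT, 1609 without proximal WT, 1861 without distal Nsun6-KO and 1426 without proximal Nsun6-KO, and the distal count was 1766, 1635, 1885 and 1743 in the same order. Scaling by library totals alone moved the median of all genes by −0.22 on the log2 scale, and 800 proximal and 1308 distal genes were then called, so that 37.95% of the segment genes were proximal instead of 51.9%. This scaling moves genes towards the distal side only. By that alone the 800 fall among the 1050 proximal genes and the 1308 include all 973 distal genes.

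**Figure D1:**
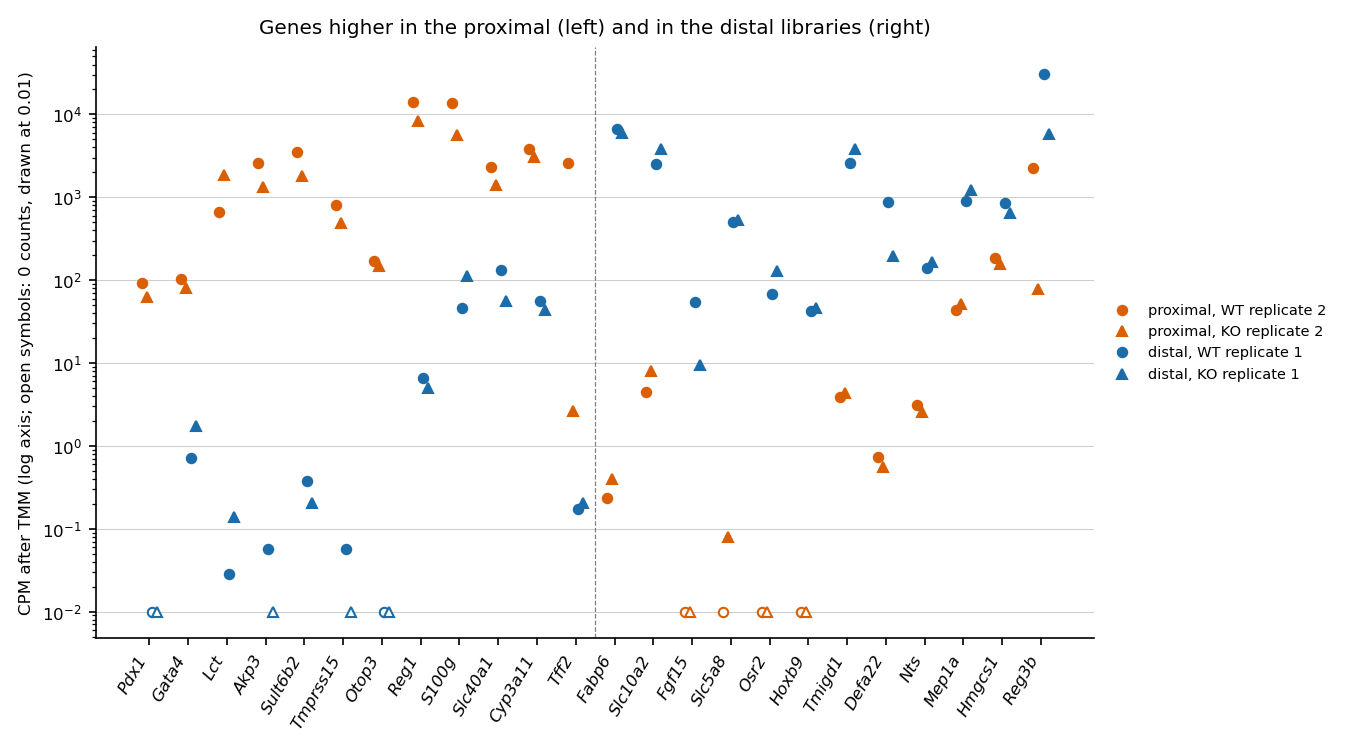
CPM of 12 proximal and 12 distal genes in each of the 4 libraries on a log axis, with orange for proximal, blue for distal, circles for WT, triangles for Nsun6-KO and open symbols for 0 counts. For each gene both symbols of one colour lie apart from both symbols of the other, as the rule for a call requires. Tff2 spans the widest range within the proximal pair.

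The 10 widest gaps towards the proximal side were those of Akp3, Sult6b2, Tmprss15, Lct, Otop3, Reg1, Cyp2b10, Pdx1, Trpv6 and Onecut2, in this order. Akp3 (ENSMUSG00000036500, chr1:87124973-87127912), an intestinal alkaline phosphatase, was at 2573 and 1323 CPM in the proximal libraries and had 2 and 0 counts in the distal ones, which put it at least 12905-fold higher in the Nsun6-KO pair. Tmprss15 (ENSMUSG00000022857, chr16:78953008-79091097) encodes enteropeptidase, which activates trypsinogen from the pancreas. It was at 812 and 488 CPM in the proximal libraries and again had 2 and 0 counts in the distal ones, at least 4759-fold higher in the Nsun6-KO pair. Lct (ENSMUSG00000026354, chr1:128284756-128328318), which encodes lactase, had 17221 and 45793 counts in the proximal libraries and 1 and 4 counts in the distal ones. The rule for a call by itself keeps the proximal and distal values of these 3 genes apart. Nearly the whole of their RNA lay in the proximal libraries. Sult6b2, which encodes a sulfotransferase, was at 3502 and 1806 CPM against 0.372 and 0.205 CPM. Otop3, which encodes a proton channel of the otopetrin family, was at 172 and 149.8 CPM and had no count in the distal libraries, at least 2006-fold and 1461-fold higher. Reg1, a secreted lectin of the Reg family, was the second most abundant proximal gene by TPM and stood at 14284 and 8432 CPM against 6.58 and 4.99 CPM.

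By TPM S100g led the proximal genes. This gene, which encodes the calcium-buffering protein calbindin-D9k, averaged 46043 TPM in the proximal libraries and 491 TPM in the distal ones. Fabp1, a carrier of fatty acids, averaged 26083 and 388 TPM, and Rbp2, a carrier of retinol, averaged 14296 and 815 TPM. Prap1 averaged 15130.0 TPM against 1545 TPM. Smim24 and Plac8 were higher by 3.61-fold in WT and 5.19-fold in Nsun6-KO and by 4.15-fold in WT and 3.24-fold in Nsun6-KO, respectively. Fth1 and Tff2, also among the leaders, are given with the iron genes and the Brunner gland genes.

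The 10 widest gaps towards the distal side were those of Fabp6, Slc5a8, Osr2, Slc6a14, Hoxb9, Tmigd1, Slc10a2, the Paneth cell defensins Defa20 and Defa22, and Slc34a2, in this order. Fabp6 (ENSMUSG00000020405, chr11:43596049-43601540), a cytosolic bile acid carrier, was at 6703 and 5902 CPM in the distal libraries and 0.234 and 0.401 CPM in the proximal ones, as the choice of libraries fixed. Slc5a8 (ENSMUSG00000020062, chr10:88885992-88929515), a sodium-coupled carrier of short-chain fatty acids, was at 501 and 534 CPM in the distal libraries and had 0 and 2 counts in the proximal ones, at least 4279-fold higher in the WT pair. Slc6a14, a carrier of neutral and cationic amino acids, was at 568 and 212 CPM and had 6 and 2 counts in the proximal libraries. Slc34a2, the phosphate carrier of the ileal brush border, was at 393 and 288 CPM and had 2 and 32 counts in the proximal libraries. Among these carriers the distal pair agreed within 2.69-fold, whereas the proximal pair held between 0 and 32 counts. Tmigd1, an adhesion protein of epithelia, was at 2607 and 3793 CPM against 3.90 and 4.37 CPM, a difference of 656-fold in WT and 855-fold in Nsun6-KO. Osr2 (ENSMUSG00000022330, chr15:35296098-35303305), a zinc finger factor of embryonic patterning, was at 67.6 and 127 CPM with no count in the proximal libraries, at least 577-fold and 1058-fold higher.

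Of the factors listed as proximal regulators, 7 of the 17 tested were higher in the proximal libraries and 2 in the distal ones, with a median log2 ratio of 0.05 against −0.03 over all genes tested. Without Pdx1, whose count helped to place the libraries, 6 of 16 were higher proximally and 2 distally, and the median was −0.09. Pdx1 (ENSMUSG00000029644, chr5:147269959-147275848), which chose the proximal libraries, was at 91.8 and 63.3 CPM and had no distal count, at least 1070.1-fold and 618-fold higher. Gata4 (ENSMUSG00000021944, chr14:63198922-63271692) was at 102 and 79.8 CPM against 0.715 and 1.74 CPM. Gata6 was at 96.9 and 110.0 CPM against 36.0 and 33.2 CPM, and Gata5 at 69.0 and 69.6 CPM against 73.7 and 89.6 CPM, so that only Gata4 and Gata6 of the GATA factors listed differed by the rule, and Gata6 by less. Onecut2 was at 439 and 389.6 CPM against 0.601 and 0.991 CPM, whereas its relative Onecut1 had no count in any library. Prdm16 was at 131 and 109 CPM against 1.06 and 0.718 CPM, a difference of 116-fold in WT and 139-fold in Nsun6-KO. The other 2 proximal members were Creb3l3 and Nr0b2. Both members higher in the distal libraries, Osr2 and the nuclear receptor gene Nr5a2 (46.2 and 74.5 CPM against 19.3 and 13.1 CPM), went against the name of the list. Hnf4a, the most abundant member by TPM, did not differ by the rule, at 459.9 and 453 CPM against 648 and 686 CPM.

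Of the 14 tested factors listed as distal regulators, 3 were higher in the distal libraries and 1 in the proximal ones, with a median log2 ratio of -1.02. Nr1h4, the bile acid receptor, was among the distal ones. The caudal genes Cdx1 and Cdx2, which are expressed along the whole intestine, stood at 98.8 and 75.2 CPM and 121 and 155 CPM in the distal libraries against 43.4 and 34.4 CPM and 67.9 and 69.0 CPM in the proximal ones and did not pass the rule. Leaving out a library raised the distal count to between 4 and 6, with 6 without proximal WT and 6 without distal Nsun6-KO.

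Hox genes, which lie in clusters in the order of their expression along the body axis, were higher in the distal libraries or did not differ by the rule. Of 39 Hox genes measured, 20 passed the filter on low counts, 12 of these were higher in the distal libraries and none in the proximal ones, and their median log2 ratio was -2.55 (−2.37 with genes at 0 held at a floor of 3 counts). Of the 12 genes 6 stayed below 10 counts in both proximal libraries and thus passed the filter through the distal ones alone, and the median was −1.87 without the filter and −1.65 with at least 10 counts in every library. The 12 genes were 7 of the 8 tested Hoxb genes, 2 of 6 in the Hoxa cluster, 2 of 4 in the Hoxc cluster and 1 of 2 in the Hoxd cluster. Along the Hoxb cluster on chromosome 11 the gap was narrowest at Hoxb2, at 0.801 and 0.923 CPM against 0.312 and 0.401 CPM. Hoxb3 stood at 3.03 and 6.91 CPM against 0 and 0.641 CPM, Hoxb4 at 11.9 and 19.6 CPM against 1.80 and 3.09 CPM and Hoxb6, the most abundant, at 44.4 and 76.1 CPM against 0.547 and 1.40 CPM, so that the gap did not grow at every step. Hoxb9 (ENSMUSG00000020875, chr11:96271457-96276595) had the widest gap, at 42.8 and 46.6 CPM with no count in either proximal library, at least 366-fold and 387-fold higher. Hoxb13, the last gene of the cluster, did not pass the filter. Hoxc6 and Hoxc8 were also almost confined to the distal pair, Hoxc8 at 4.004 and 12.5 CPM with no proximal count. The counting command recorded with the counts set no strand option, whereas the study's methods name a reversely stranded one. By the recorded command, reads of antisense transcripts in the Hox clusters cannot be told apart from those of the Hox genes.

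**Figure D2:**
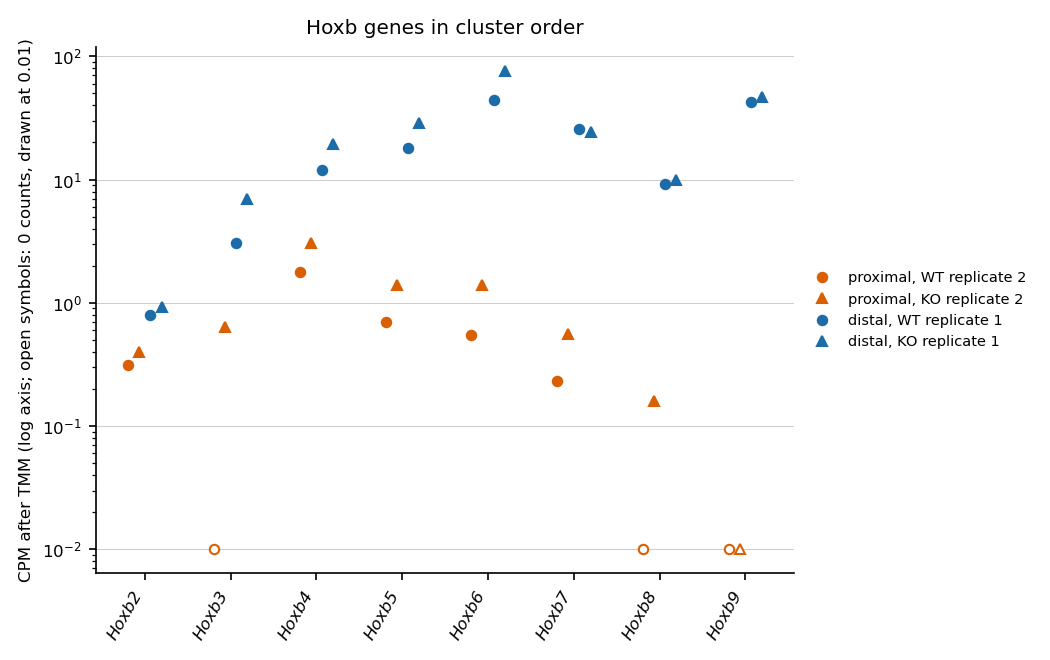
CPM of the 8 tested Hoxb genes in cluster order from Hoxb2 to Hoxb9, for each library on a log axis, with the same symbols as above. The distal symbols lie between 0.801 and 76.1 CPM and the proximal ones between 0 and 3.09 CPM, and the gap is narrowest at Hoxb2 and widest at Hoxb9.

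Several genes of bile acid recovery, among them those of the apical importer and the basolateral exporter, were higher in the distal libraries. Of 11 tested genes 6 were higher distally and 1 proximally, with a median log2 ratio of -1.81. Fabp6, which placed the distal libraries, is 1 of the 6, and without it 5 of 10 were higher distally and 1 proximally, with a median of −1.40. The median of the whole list was −0.99 without the filter on low counts. Slc10a2 (ENSMUSG00000023073, chr8:5083219-5105351), the sodium-coupled importer of bile acids at the apical membrane, was at 2522 and 3806 CPM in the distal libraries and 4.53 and 8.02 CPM in the proximal ones, a difference of 548-fold in WT and 471-fold in Nsun6-KO. The genes of the basolateral exporter, Slc51a and Slc51b, were higher by 3.35-fold and 4.65-fold in WT and by 3.69-fold and 5.35-fold in Nsun6-KO. Nr1h4, which encodes the bile acid receptor, was at 374 and 404 CPM against 60.04 and 40.7 CPM. Fgf15, the hormone that reports bile acid uptake to the liver, was at 54.7 and 9.54 CPM with no count in either proximal library, at least 467-fold and 79.3-fold higher. Its 2 distal values differed 5.74-fold. Nr0b2, a target of the same receptor, went the other way at 20.6 and 29.7 CPM proximally against 0.229 and 0.342 CPM, and without proximal Nsun6-KO 3 genes of the list were higher proximally. None of the 9 vitamin B12 genes passed the rule (median log2 ratio -0.44), and 2 did without distal WT or without proximal Nsun6-KO. Cubn, the receptor for intrinsic factor with B12, was at 287 and 692 CPM in the distal libraries and 88.3 and 225 CPM in the proximal ones, higher within each genotype by 3.24-fold in WT and 3.07-fold in Nsun6-KO, but the distal WT and the proximal Nsun6-KO values lay within 2-fold of each other.

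Iron genes, among them those of the ferrous iron importer and of the exporter, were in part higher in the proximal libraries. Of 12 tested genes 7 were higher proximally, none distally and 5 in neither segment, with a median log2 ratio of 1.87. The gene with the highest ratio of the 7, Slc46a1, also stands in the vitamin list and is given there. Cybrd1, the ferric reductase of the brush border, was at 223 and 64.3 CPM against 3.12 and 5.13 CPM. Slc11a2, the ferrous iron importer, was higher by 22.8-fold in WT and 14.5-fold in Nsun6-KO, and Slc40a1, which encodes the exporter ferroportin, stood at 2298 and 1404 CPM against 133 and 55.3 CPM. Fth1 and Ftl1, the chains of the storage protein ferritin, were higher by 12.4-fold and 2.70-fold in WT and 9.15-fold and 2.77-fold in Nsun6-KO. Epas1, the hypoxia-responsive factor that drives iron uptake genes in the duodenum, was at 149.8 and 127 CPM against 26.03 and 30.8 CPM. Tfrc, the transferrin receptor used by dividing cells, was at 156 and 232 CPM against 336 and 301 CPM, and Heph, the ferroxidase that works with ferroportin, at 739 and 608 CPM against 449.5 and 513 CPM, and neither passed the rule.

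The calcium list held Trpv6, 1 of the 10 widest proximal gaps, and S100g, the leading proximal gene by TPM. Most of the list did not pass the rule. Of 15 tested genes 2 were higher proximally and 1, Slc34a2, distally, with a median log2 ratio of 0.63. Trpv6, the apical calcium channel, was at 217 and 64.2 CPM in the proximal libraries and had 3 and 2 counts in the distal ones. S100g was at 13752 and 5711 CPM against 46.2 and 111 CPM, a difference of 297-fold in WT and 51.5-fold in Nsun6-KO. For both genes the proximal WT value was more than 2-fold above the proximal Nsun6-KO value. Vdr, the vitamin D receptor, was at 607 and 523 CPM against 289 and 383 CPM and did not pass. Without proximal Nsun6-KO the proximal count was 6, and without distal WT or distal Nsun6-KO it was 4, while the distal count was 3 without distal Nsun6-KO and 2 without proximal WT.

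Among 26 tested genes of vitamin uptake and retinoid metabolism, 12 were higher proximally and 2 distally, with a median log2 ratio of 1.23. Slc46a1, the proton-coupled folate importer, was at 458 and 621 CPM against 4.23 and 3.38 CPM, a difference of 106-fold in WT and 179.7-fold in Nsun6-KO. The thiamine carrier Slc19a3 was at 75.6 and 55.5 CPM and had 2 and 8 counts distally, and its relatives Slc19a1 and Slc19a2 were higher by 8.04-fold in WT and 13.8-fold in Nsun6-KO and by 2.57-fold in WT and 2.58-fold in Nsun6-KO, respectively. Rbp2 stood at 5609 and 6277 CPM against 128 and 393 CPM, and the alcohol dehydrogenases Adh1 and Adh4, which oxidize retinol, at 602 and 607 CPM and 72.1 and 40.6 CPM against 13.8 and 21.6 CPM and 0.315 and 0.718 CPM. The 2 distal genes were Bco1, which cleaves beta-carotene, at 9.64 and 24.03 CPM against 2.93 and 1.76 CPM, and the riboflavin carrier Slc52a3, at 120.0 and 120.2 CPM against 24.5 and 16.3 CPM, and without proximal Nsun6-KO 4 genes were higher distally.

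Sugar genes gave the largest share of proximal members of the nutrient lists. Of 18 tested genes 13 were higher proximally and none distally, with a median log2 ratio of 2.61. The disaccharidases differed in degree: beside Lct, the trehalase gene Treh was higher by 8.30-fold in WT and 4.56-fold in Nsun6-KO, Mgam, which encodes maltase-glucoamylase, by 3.27-fold in WT and 2.98-fold in Nsun6-KO, and Sis, which encodes sucrase-isomaltase, stood at 4961 and 5076 CPM against 2148 and 4552 CPM and did not pass. Among the transporters the difference widened from Slc5a1, the sodium-coupled glucose importer, at 3902 and 3995 CPM against 1203 and 1927 CPM, to the fructose importer Slc2a5, at 250.4 and 912 CPM against 18.9 and 66.0 CPM, and the basolateral exporter Slc2a2, at 1328 and 1360.1 CPM against 5.41 and 23.8 CPM. Fructose breakdown followed, with Khk and Tkfc higher by 5.07-fold and 6.41-fold in WT and 6.13-fold and 7.38-fold in Nsun6-KO. The gluconeogenic genes Fbp1 and G6pc were at 69.7 and 165 CPM and 33.0 and 357 CPM against 5.03 and 4.58 CPM and 7.04 and 5.64 CPM, and within the proximal pair G6pc was 10.8-fold higher in the Nsun6-KO library.

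Fat absorption was likewise weighted to the proximal side. Of 32 tested genes 13 were higher proximally and 2 distally, with a median log2 ratio of 1.11. Fabp1 was at 5533 and 6905 CPM against 10.6 and 130.2 CPM, whereas Fabp2, the other fatty acid carrier of enterocytes, was at 10758 and 10339 CPM against 5334 and 7875 CPM and did not pass. The apolipoprotein genes Apoa4 and Apoc3 were higher by 39.3-fold in WT and 52.6-fold in Nsun6-KO and by 20.7-fold in WT and 27.4-fold in Nsun6-KO, and Mttp, which loads lipid onto apolipoprotein B, by 4.85-fold in WT and 6.66-fold in Nsun6-KO. Creb3l3, a membrane-bound factor that acts on apolipoprotein genes, was at 575 and 538 CPM against 34.9 and 71.8 CPM. Scd1 and Scd2, the desaturases of newly made fatty acids, were the 2 distal members, with Scd2 at 470.1 and 280.4 CPM against 17.6 and 27.2 CPM. Fatty acid oxidation and ketogenesis had 8 of 20 tested genes higher proximally and none distally (median log2 ratio 0.92), among them Cyp4a10 at 53.7 and 22.97 CPM with 12 and 0 distal counts, Acaa2 at 623 and 499 CPM against 59.5 and 76.3 CPM and the kinase gene Pdk4 at 88.0 and 130.4 CPM against 3.89 and 4.82 CPM.

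Cholesterol synthesis was the metabolic list with the largest share of distal genes. Of 22 genes 16 were higher distally and none proximally, with a median log2 ratio of -2.005 (-1.90 in WT and -2.04 in Nsun6-KO). Hmgcs1, which makes HMG-CoA at the start of the pathway, was at 856 and 644 CPM in the distal libraries against 187 and 156 CPM in the proximal ones. In the middle of the pathway Idi1 was at 164 and 145 CPM against 28.7 and 12.7 CPM, and Sqle, the squalene epoxidase, at 194 and 193 CPM against 28.2 and 22.6 CPM. Not every gene moved with the pathway: Ebp stood at 73.7 and 65.6 CPM against 122 and 130.4 CPM, Sc5d at 237 and 258 CPM against 242 and 247 CPM, and Insig1, whose product restrains the pathway, at 175 and 156 CPM against 249.9 and 336 CPM. Of 11 genes of cholesterol uptake and export, 1 was higher proximally (Scarb1, at 78.7 and 49.8 CPM against 2.15 and 1.37 CPM) and 2 distally, Mylip among them, and the apical importer Npc1l1 stood at 329.7 and 527 CPM against 324 and 427 CPM.

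Peptidases of the brush border were split. Of 17 tested genes 6 were higher distally, 2 proximally (the genes of enteropeptidase and neprilysin) and 9 in neither segment (median log2 ratio -0.89). Mep1a and Naaladl1 were at 889 and 1223 CPM and 1631 and 2435 CPM against 43.3 and 51.4 CPM and 59.9 and 104 CPM, and Enpep, Dpp4, Xpnpep2 and Dpep1 were also higher distally, by 2.54-fold to 16.9-fold. Without distal Nsun6-KO the proximal count was 4. Mme, which encodes neprilysin, was at 1918 and 2217 CPM proximally against 204 and 284 CPM. Among 18 tested amino acid and peptide carriers, 4 were higher distally (Slc6a14, Slc1a1, Slc1a5 and Slc3a1) and 2 proximally (Slc7a8 and Slc36a1), with a median log2 ratio of -0.13 that turned to 0.32 without distal Nsun6-KO, when 5 genes were higher proximally. The glutamate carrier Slc1a1 was at 146 and 239 CPM against 11.1 and 10.8 CPM. Slc15a1, the carrier of dipeptides, and Slc6a19, the main carrier of neutral amino acids, did not pass, at 259 and 291 CPM and 1035 and 735 CPM proximally against 182 and 582 CPM and 622 and 1659 CPM.

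Genes of xenobiotic metabolism formed the longest proximal group. Of 45 tested genes 26 were higher proximally and 3 distally, with a median log2 ratio of 1.66. Among the cytochromes Cyp3a11 was at 3815 and 3047 CPM against 56.1 and 43.2 CPM, Cyp2b10 at 283 and 415 CPM against 0.229 and 0.137 CPM and Cyp3a13, the most abundant member, at 3174 and 2323 CPM against 463 and 418 CPM. Nr1i3, the nuclear receptor that drives Cyp2b10, was at 23.3 and 17.9 CPM against 0.572 and 0.957 CPM, whereas Nr1i2, the receptor that drives Cyp3a genes, was at 249.3 and 191 CPM against 124 and 144 CPM and did not pass. Adh6a was higher by 85.3-fold in WT and 134-fold in Nsun6-KO, and the glutathione transferase genes Gsta1 and Gsta4 by 22.7-fold in WT and 14.7-fold in Nsun6-KO and by 21.8-fold in WT and 19.95-fold in Nsun6-KO. Both efflux pump genes of the list went the other way, Abcb1a at 571 and 979.6 CPM distally against 193 and 121 CPM and Abcg2 at 979 and 692 CPM against 259 and 211 CPM, together with Cyp3a44. Reads of the near-identical Cyp3a, Cyp2c and Gsta genes may have been assigned to the wrong member or lost, so that values of single members are uncertain.

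**Figure D3:**
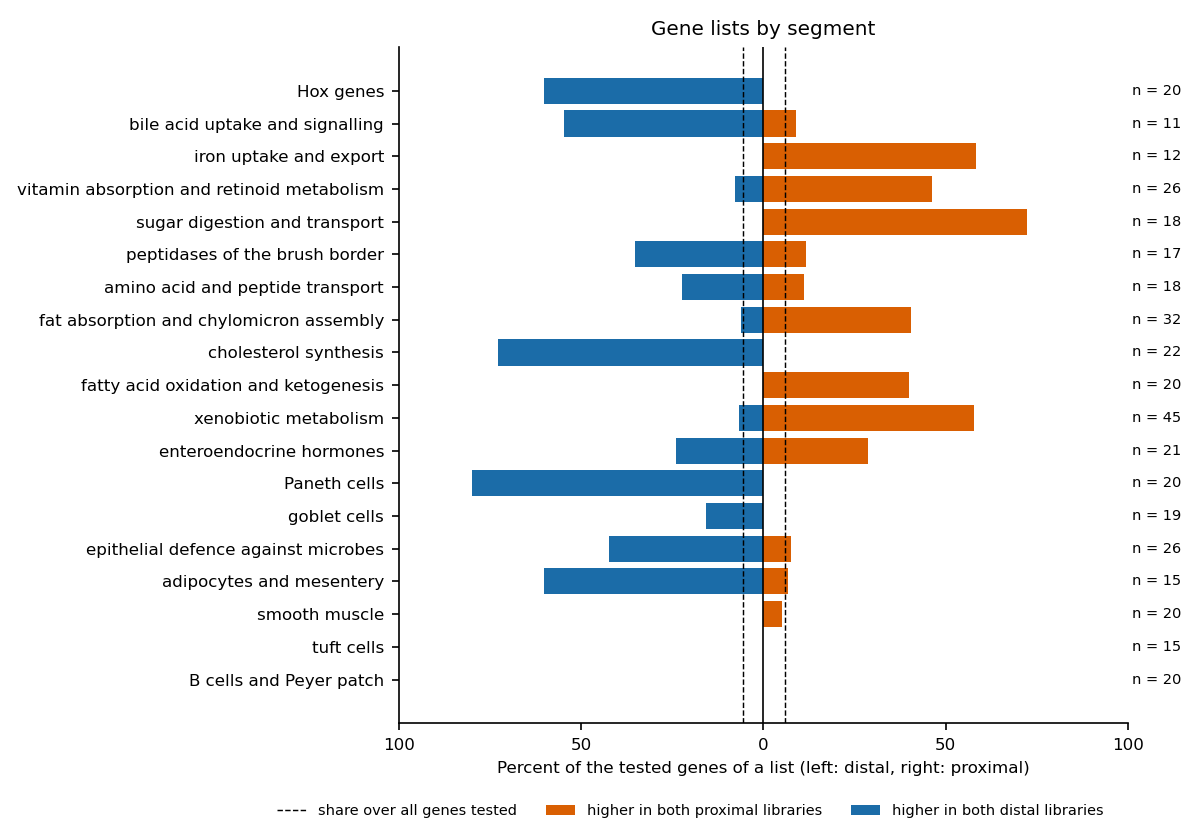
Percent of the tested genes of 19 lists that were higher in both proximal libraries (orange, to the right) or in both distal libraries (blue, to the left), with the number tested at the right and dashed lines at the shares over all genes tested (5.94% and 5.5%). Sugar, iron and xenobiotic lists reach furthest to the right. Paneth cell and cholesterol synthesis lists reach furthest to the left, followed by the Hox list and the adipocyte and mesentery list at equal shares.

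Hormone genes of enteroendocrine cells split by hormone. Of 21 tested genes 6 were higher proximally and 5 distally (median log2 ratio 0.41). Gip, the incretin of the duodenum, was at 75.0 and 105 CPM against 1.001 and 0.786 CPM, and Cck, which contracts the gallbladder, at 45.0 and 62.8 CPM against 2.86 and 3.66 CPM. Ghrl, Sst, the serotonin synthesis gene Tph1 and Chgb were the other 4 proximal genes, higher by 3.52-fold to 17.5-fold. On the distal side Nts, which encodes neurotensin, was at 142 and 167 CPM against 3.08 and 2.57 CPM. Gcg, the source of GLP-1, was at 40.0 and 20.9 CPM against 1.91 and 4.89 CPM, and Pyy at 23.9 and 33.7 CPM against 5.62 and 5.93 CPM. Insl5 was at 0.829 and 1.47 CPM with no proximal count, and Tac1, which neurons also express, was the fifth distal gene. Sct, which encodes secretin, did not pass, at 41.4 and 50.2 CPM against 31.0 and 46.2 CPM.

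Paneth cell genes were higher in the distal libraries in 16 of 20 tested cases and in none in the proximal ones, with a median log2 ratio of -3.13. Summed over the list they reached 436 and 845 CPM in the proximal libraries and 8330.2 and 3913 CPM in the distal libraries. The most abundant, Defa24, was at 1475 and 943 CPM against 132 and 212 CPM. Defa20, Defa21 and Defa22 were nearly absent proximally, with Defa22 at 869.6 and 194 CPM against 0.742 and 0.561 CPM. Lyz1, the lysozyme of Paneth granules, was at 2296 and 471 CPM against 102 and 175 CPM, and the matrix protease Mmp7, which activates the defensins, at 75.7 and 19.7 CPM against 5.04 and 3.65 CPM. The proximal libraries thus held Paneth cell RNA at a lower level, and Defa24 and Defa30 differed less between the segments than Defa20 to Defa22. The distal WT values were above the distal Nsun6-KO ones for each listed defensin but Defa17 and Defa23, by 4.49-fold for Defa22. Defensin genes are near-identical copies, and the share of reads of each copy is uncertain. Ang4, Habp2, Nupr1 and Mptx1 did not pass, and Mptx1 had opposite signs in the genotypes.

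Goblet cell genes mostly did not pass the rule. Of 19 tested genes 3 were higher distally (Guca2a, Spink4 and Bcas1) and none proximally, with a median log2 ratio of -0.71. Guca2a, which encodes guanylin and is also expressed by enterocytes, was at 607 and 702 CPM against 44.9 and 42.5 CPM, whereas Muc2, the main mucin, was at 2332 and 1578 CPM against 871 and 886 CPM and Tff3 at 2174 and 1214 CPM against 2041 and 1380.3 CPM. Without distal Nsun6-KO the distal count was 7, and without proximal WT it was 5. Of 18 genes of stem and dividing crypt cells 1 was higher on each side: Lgr5, the stem cell receptor, at 9.38 and 7.21 CPM distally against 2.89 and 3.37 CPM, and Rnf43, which limits Wnt receptors, at 97.7 and 61.3 CPM proximally against 15.1 and 12.9 CPM. The median was -1.13, and without distal Nsun6-KO 12 of the 18 were higher distally, since dividing cell genes such as Mki67 were highest in distal WT (207 CPM against 48.1 to 78.4 CPM in the other 3).

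Genes of epithelial defence were higher distally in 11 of 26 tested cases and proximally in 2 (Reg1 and Il18, with 4 without distal WT), with a median log2 ratio of -2.14. Reg3b, a bactericidal lectin and the most abundant distal gene by TPM (46105 TPM), was at 30829 and 5834 CPM distally against 2245 and 78.1 CPM proximally. Its spread within a segment was wide, 28.8-fold between the proximal libraries, so that the segments were parted by only 2.60-fold at the nearest libraries. Reg3g, at 14013 and 1192 CPM against 731 and 28.9 CPM, did not pass because the proximal WT and distal Nsun6-KO libraries lay within 2-fold. Duox2 and Duoxa2, which make hydrogen peroxide at the epithelial surface, were at 355 and 1233 CPM and 42.3 and 226 CPM against 5.19 and 20.2 CPM and 0.273 and 2.61 CPM. Nos2, which makes nitric oxide, was at 252 and 22.2 CPM against 0.664 and 0.241 CPM, and Saa1, a retinol-binding acute phase protein, was at 907 and 49.8 CPM with 5 and 2 proximal counts. The Reg3 genes are close copies of each other, and the counts of single members are uncertain.

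None of 20 tested B cell genes, 10 MHC class II genes or 15 tuft cell genes passed the rule. The B cell list summed to 39.2 and 179 CPM in the proximal libraries and 847 and 145 CPM in the distal libraries. Its members parted by genotype pair, with a median log2 ratio of -5.85 in WT and 4.29 in Nsun6-KO, and 17 of 20 were past 2-fold in opposite directions. Cd79a, a chain of the B cell receptor, was at 1.56 and 10.6 CPM proximally and 32.6 and 0 CPM distally. Lymphoid follicles are known to be spaced along the intestine, and whether a patch was cut with a piece is not recorded. Without distal Nsun6-KO 19 of these genes were higher distally, and without distal WT 10 were higher proximally. The list shares H2-Ob with MHC class II, Ighm with plasma cells, Spib with follicle-associated epithelium and Rgs13 with tuft cells. Rgs13 is its most abundant gene.

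MHC class II genes, which present antigen, summed to 1809 and 1030.1 CPM in the proximal libraries and 2317 and 89.9 CPM in the distal libraries, with Cd74 as the most abundant. All 10 were higher proximally without distal WT, in which only the low distal Nsun6-KO library holds the segment. Plasma cell genes had 3 of 16 higher proximally, among them Jchain at 2071 and 1707 CPM against 586 and 133 CPM and Igkc, the most abundant, at 1440.3 and 2986 CPM against 548 and 48.95 CPM, and 1 distally (Sdc1, which epithelium also expresses). Without distal WT 10 plasma cell genes were higher proximally and without proximal WT 6, whereas without distal Nsun6-KO 3 were higher proximally and 4 distally. T cell and intraepithelial lymphocyte genes had 3 of 24 higher proximally (Ccl5, Nkg7 and Trdc) and summed to 1410.0 and 897 CPM in the proximal libraries and 699 and 91.9 CPM in the distal libraries, with Gzma as the most abundant, and 23 were higher proximally without distal WT and 6 without proximal Nsun6-KO. Myeloid genes had 2 of 19 higher proximally (Tyrobp and Clec9a), 13 without distal WT and 10 without proximal WT. Interferon-stimulated genes had 1 of 33 higher proximally, 12 without distal WT and 3 without proximal Nsun6-KO, while 3 were higher distally without distal Nsun6-KO. Of 11 genes of follicle-associated epithelium 1, Marcksl1, was higher distally and none proximally. The distal count was 3 without distal or without proximal Nsun6-KO and 2 without proximal WT, and the proximal count 3 without distal WT and 2 without proximal Nsun6-KO. The MHC class II and T cell sums were lowest in the distal Nsun6-KO library, without which MHC class II had 0 genes higher proximally and 3 distally and T cells had 3 and 1.

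Tuft cell genes summed to 122 and 267 CPM in the proximal libraries and 116 and 614 CPM in the distal libraries, with 9 of the 15 higher distally without distal WT and 2 proximally without distal Nsun6-KO. Dclk1, a kinase that marks these chemosensory cells, was at 9.14 and 20.1 CPM proximally and 11.1 and 63.9 CPM distally. Smooth muscle genes summed to 1522 and 3316 CPM in the proximal libraries and 1115 and 5565 CPM in the distal libraries, with Myl9 as the most abundant, and thus followed the genotype pair more than the segment. Only Hhip, 1 of 20, was higher proximally, while without distal WT 8 were higher distally and without distal Nsun6-KO 4 proximally. Of 20 genes of enteric neurons and glia 1, Tac1, was higher distally, 5 without proximal Nsun6-KO and 3 without distal WT, while 2 were higher proximally without distal Nsun6-KO. None of 7 genes of interstitial cells of Cajal passed, and leaving out a library gave at most 1 on each side. Fibroblast genes had 3 of 26 higher proximally, with Fbln1 at 81.8 and 186 CPM against 7.26 and 14.97 CPM, and none distally. Their proximal count was 5 without proximal WT, and their distal count 5 without proximal Nsun6-KO and 3 without distal WT. Endothelial genes had 3 of 13 higher proximally (Kdr, Emcn and Plvap) and 1 distally (Prox1, a lymphatic factor), with 6 proximal genes without distal WT, 7 without proximal WT and 2 distal genes without proximal Nsun6-KO. Haemoglobin genes had 3 of 5 higher proximally at low levels, Hba-a1 at 15.7 and 45.7 CPM against 6.86 and 5.26 CPM, and Hba copies are not told apart by these reads. The muscle and tuft cell sums were highest in the 2 Nsun6-KO libraries, and their part in the segment calls was not tested.

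Genes listed for adipocytes and mesentery were higher in the distal libraries in 9 of 15 tested cases and proximally in 1. Their median log2 ratio was -1.64. The list also holds Msln, Upk3b, Wt1 and Krt19, so that its counts and median are not of adipocyte genes alone. The proximal count was 2 without proximal WT or without distal Nsun6-KO. Adipoq, the adiponectin gene of adipocytes, was at 12.5 and 8.41 CPM and had 2 and 0 proximal counts. Retn, Cfd and Plin1 were at 12.04 and 4.89, 25.7 and 16.5 and 2.09 and 1.64 CPM in the distal libraries and at most 0.39 CPM in the proximal ones. Leptin had 66 and 2 distal counts and none proximally. The proximal member, Cidec, is also expressed by enterocytes that handle fat and stood at 163 and 158 CPM against 16.1 and 23.7 CPM. Over the whole list the sums were 785 and 842 CPM in the proximal libraries and 1296 and 1367 CPM in the distal libraries, mostly Krt19, which epithelium expresses. Adipocyte RNA thus accompanied the distal pair in both genotypes, and its part in other distal genes was not tested.

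Genes of the Brunner glands and stomach separated the 2 proximal libraries. The list summed to 4967 and 14.1 CPM in the proximal libraries and 6.58 and 3.90 CPM in the distal libraries. Gkn3, Tff2 and Muc6, secreted by mucous glands, were at 1800.2, 2579 and 496 CPM in proximal WT and at 3.05, 2.61 and 1.36 CPM in proximal Nsun6-KO. The acid pump genes Atp4a and Atp4b, which define parietal cells of the stomach, had 4 and 0 counts in proximal WT. Of the other members below the filter, Tff1 had 17 counts in proximal WT and none in any other library. Muc5ac had 23 counts in proximal WT against 2 to 8 in the other libraries, and Bpifb1 and Cblif had at most 5 in any library. Of the 8 tested members 4 were higher proximally by the rule (Tff2, Gkn3, Gkn1 and Pgc), and 7 without proximal Nsun6-KO. The pancreas list held both rare and abundant members. It summed to 5313 and 3923 CPM in the proximal libraries and 5422 and 2618 CPM in the distal libraries, mostly Zg16, which goblet cells express. The colipase gene Clps averaged 112 TPM in the proximal and 132 TPM in the distal libraries, and the lipase-related gene Pnliprp2 19.01 and 117 TPM, with Pnliprp2 highest in distal Nsun6-KO (103 CPM). Of the 28 listed genes 18 failed the filter on low counts. Among these the trypsinogen gene Prss2 had 17 and 2 proximal and 8 and 4 distal counts, Cpa1 had 4 counts in proximal WT alone and both insulin genes had none. Of the 10 tested 1, Pla2g1b, was higher proximally, at 0.468 and 0.401 CPM, 3 without distal WT or distal Nsun6-KO and 2 without proximal WT or proximal Nsun6-KO, while 1 was higher distally without distal WT. The colon list had 3 of 13 higher on each side (5 distally without distal Nsun6-KO), with its most abundant gene, the goblet cell product Zg16, at 5239 and 3853 CPM proximally and 5366 and 2468 CPM distally. Enterocyte genes, the check on the labelled tissue, summed to 52088 and 55347 CPM in the proximal libraries and 29027 and 38988 CPM in the distal libraries, with 3 of 19 higher proximally (5 without distal Nsun6-KO and 4 without proximal WT) and none at 0 in any library.

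Of 18 circadian clock genes 4 were higher proximally (Per1, Per2, Hlf and Bhlhe40), with Per2 at 148 and 137 CPM against 30.6 and 54.8 CPM, and none distally. Without distal Nsun6-KO 8 were higher proximally and 1 distally, and without proximal Nsun6-KO 4 and 2. None of 15 immediate early genes and none of 12 tested genes of the NSUN family and of 5-methylcytosine readers and erasers passed the rule, and leaving out a library gave at most 2 on either side of each list. Xist, the only tested gene of its list of sex-linked genes, was at 741 and 534 CPM proximally and 1064 and 1046 CPM distally, and 4 Y-linked genes had no count. Among chromosomes with more than 1 tested gene the X stood lowest for proximal genes, with 10 of its 559 tested genes higher proximally (1.79%) and 32 distally (5.73%). Chromosome 6 was highest, with 91 of 1003 (9.07%) higher proximally.

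The WT and Nsun6-KO pairs gave segment ratios of the same sign in 68.2% of all genes tested, and somewhat more often among genes with large ratios. Across 17680 genes the log2 ratio of proximal over distal in WT correlated with that in Nsun6-KO at r = 0.57 and rho = 0.489, as a description over genes that share 4 libraries. Of 5381 genes past 2-fold in WT 79.1% had the same sign in Nsun6-KO, and of 5447 past 2-fold in Nsun6-KO 76.8% had the same sign in WT. Past 4-fold the shares were 82.9% of 1854 genes and 78.6% of 2141 genes. In opposite directions past 2-fold were 456 genes. Of these 344 were higher proximally in Nsun6-KO and distally in WT, 17 of them in the B cell list, and 112 were the reverse.

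**Figure D4:**
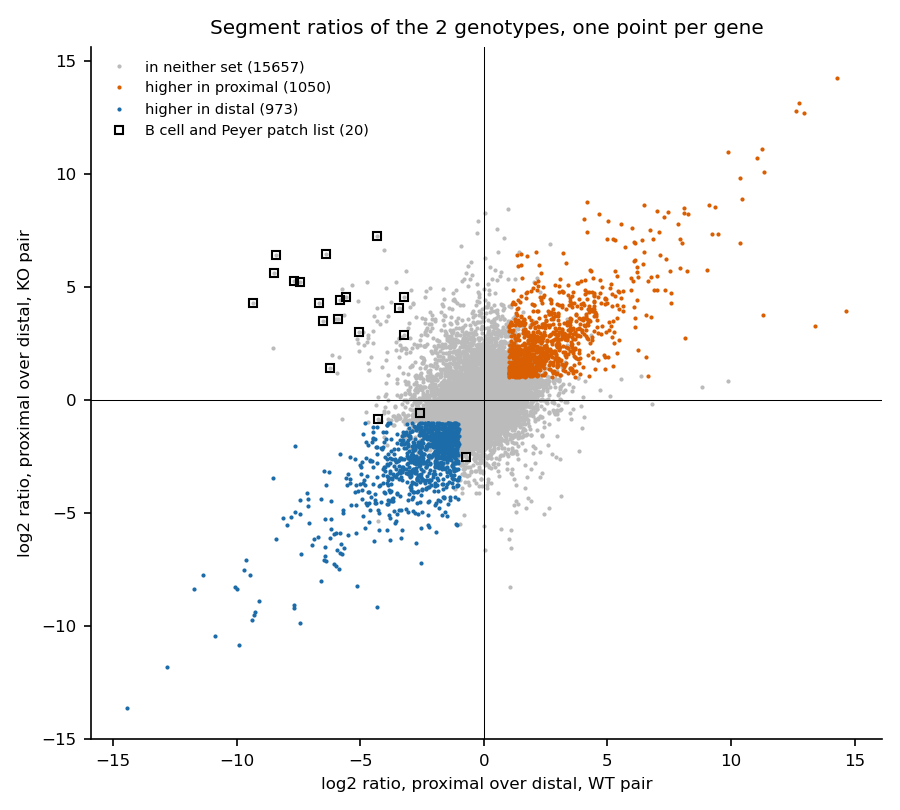
Log2 ratio of proximal over distal in the Nsun6-KO pair (vertical axis) against the same ratio in the WT pair (horizontal axis), one point per gene, with proximal genes in orange, distal genes in blue and the B cell list as open squares. Most of the B cell squares sit at the upper left, where the ratio is negative in WT and positive in Nsun6-KO.

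Many segment genes were expressed in other organs, proximal ones more widely than distal ones. Over 1 TPM in all 4 liver libraries were 57.8% of proximal and 30.6% of distal genes, against 63.8% of all genes tested. In kidney the shares were 62.3% and 43.0% against 69.8%, in spleen 55.8% and 45.5% against 77.8%, and in heart 51.2% and 35.5% against 68.8%. At a threshold of 5 TPM the proximal share in liver, 44.3%, lay above the 40.7% of all genes tested, and in the other 3 organs it stayed below. Averages under 1 TPM in each of the other 4 organs were found for 174 proximal genes (16.6%) and 248 distal genes (25.5%), against 8.35% of all genes tested. Liver shared Fabp1 (27323 TPM there against 26083 TPM in the proximal libraries) and Cyp3a11 (2960.0 TPM). Kidney shared genes of both segments: S100g at 10894 TPM, Mep1a at 905 TPM, Tmigd1 at 302 TPM, Slc10a2 at 126 TPM and Hoxb9 at 40.8 TPM. Gata4, which acts in the heart as well, averaged 37.2 TPM there. Fabp6 had 104 and 218 counts in the first spleen libraries of WT and Nsun6-KO and at most 22 in any other library outside the intestine, and Pdx1 had 4 counts in 1 heart library and none elsewhere outside the intestine.

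**Figure D5:**
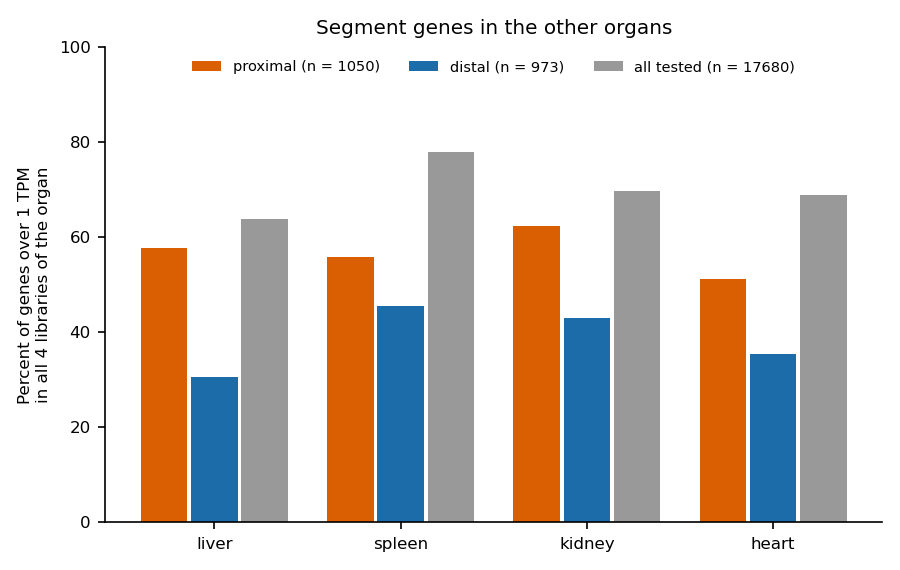
Percent of proximal genes (orange, n = 1050), distal genes (blue, n = 973) and all tested genes (grey, n = 17680) with more than 1 TPM in all 4 libraries of liver, spleen, kidney and heart. In each organ the proximal bar is above the distal bar and below the grey one.

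Promoters of segment genes were compared for the words shown above, over 250 bases before and 50 after the RefSeq start site. A promoter was found for 742 proximal, 599 distal and 12293 of all tested genes. AGATAA was present in 11.2% of proximal promoters (95% Wilson interval 9.12 to 13.7), 9.35% of distal ones (7.27 to 11.9) and 7.17% of all. TAATTA was present in 5.26% and 3.84% against 2.75% of all, GTTAAT in 7.41% and 5.68% against 4.70%, CAAAGT in 17.5% and 14.2% against 12.5%, AGGTCA in 18.6% and 12.4% against 12.9%, and CAATAAA in 3.23% and 3.34% against 2.88%. Among proximal and distal genes past 4-fold the shares were 17.02% and 11.52% for AGATAA, 8.16% and 6.81% for TAATTA, 9.93% and 7.33% for GTTAAT, 24.1% and 15.7% for CAAAGT, 20.2% and 12.04% for AGGTCA and 6.03% and 4.71% for CAATAAA. Base composition differed as well, with a median GC content of 56.3% in proximal, 57% in distal and 60% in all promoters, and its part in these shares was not tested. The intervals cover counting error only, and genes of one family share promoter sequence.

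The comparison of Nsun6-KO with WT small intestine sets 1 proximal and 1 distal library of each genotype against each other. Nsun6 itself, counted over all its exons and so no check of the deleted exons, had 338 and 267 counts in the distal and 156 and 127 counts in the proximal libraries of WT and Nsun6-KO. By edgeR's quasi-likelihood test its log2 fold change was −0.15 (SE 0.52, adjusted p = 0.9999). No gene of 17680 passed an adjusted p of 0.1 with a fold change over 2 by that test (0.0%), the lowest adjusted p being 0.9999, while 422 genes had an unadjusted p under 0.05. DESeq2, run on all genes with a count and without the segment, called 36 genes higher and 15 lower in Nsun6-KO. None of these was a segment gene, against 10.6% of the 14882 genes to which that fit gave an adjusted p, and in that fit the segment difference is part of the spread within each genotype. With segment as a term in the model, edgeR again called 0 genes while 1031 had an unadjusted p under 0.05, and DESeq2, in a fit chosen after seeing the data, called 189 higher and 156 lower, 45 of them segment genes (13.04%, against 10.7% of the 15408 genes to which that fit gave an adjusted p). The biological coefficient of variation estimated by edgeR was 0.602 without and 0.388 with this term. The 2 libraries of a genotype came from different segments. In the fits without segment as a term, a p-value thus measures a spread that includes the segment.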

How the data were processed

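Per the file headers and labels, the authors trimmed paired-end reads of stranded mRNA libraries with cutadapt, aligned them to mm10 with HISAT2 2.1.0 and deposited raw counts per gene, made with featureCounts 2.0.1 over exons of Ensembl GRCm38.102, with neither a strand nor a paired-end option in the recorded command. The study's methods name reversely stranded counting of proper pairs instead, and the header was followed. Of the small intestine values from 1 to 20, 63.75% were even. Of 55401 genes, 17680 passed edgeR's filterByExpr in the 4 small intestine libraries, and all 20 deposited columns were read. TMM factors (edgeR 4.0.16, R 4.3.3) scaled the counts to CPM. TPM was computed here from the counts and the exon length in the table. Segments were set by Fabp6 counts above 1000 and Pdx1 counts above 100. Ratios used log2 CPM with a prior count of 2, in Python 3.11.15. A fold against a library without counts was computed against a floor of 3 counts for that library and is given as a lower bound. Intervals and floors cover counting error only.

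Nsun6-KO was compared with WT with the quasi-likelihood test of edgeR, p-values being adjusted over all 17680 genes by the Benjamini-Hochberg method (adjusted p under 0.1 and fold change over 2), and by DESeq2 1.42.0 on the 28573 genes with a count as an alternative. The edgeR script was tested on simulated data. The labels do not say that replicates came from separate animals, so that p-values measure the spread between these libraries.

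Genes were named by rule: the 5 position markers, the 10 genes of each segment with the widest gap among those with at least 10 CPM in both high libraries, the 10 with the highest TPM, and from each of 46 lists (814 genes, 10 of which are not in the table) the extremes, the most abundant member and members whose role is described. Predicted genes and receptor segments were left out of the widest-gap and TPM rankings. Of the genes called for a segment, Apoa4, Creb3l3, Nr0b2, Nr1h4, Pla2g2a, Saa1, Scarb1, Slc46a1, Tac1 and the position markers stand in more than 1 list. The members and lists were chosen with earlier results of these data known. Other genes are named in the closing section after their values were seen. Some genes that the rule names are not reported here.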

Additional observations from a re-analysis of the deposited data

Results flagged for a closer look

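In some genes and in the B cell list, the 2 genotype pairs moved in opposite directions between the segments, with the distal and proximal libraries of WT parted one way and those of Nsun6-KO the other. The difference between the genotypes was not tested in any of these cases, since each pair holds 1 library per segment. The median log2 ratio of proximal over distal over the B cell list was −5.85 in WT and 4.29 in Nsun6-KO. Its member Cd79a, a chain of the B cell receptor, had a log2 ratio of −4.32 in WT and 7.26 in Nsun6-KO, and H2-Ob, a chaperone of antigen presentation in B cells, −5.80 and 4.42. Among other cell markers, Cd2 of T cells had log2 ratios of −2.47 and 1.67, and Lyz2 of macrophages −1.02 and 2.18. The distal WT library was highest for each of these 4 genes and the distal Nsun6-KO library lowest. Mptx1, a pentraxin secreted by Paneth cells, was parted the other way, with a log2 ratio of 1.98 in WT and −2.37 in Nsun6-KO, and stood at 0.629 and 65.5 CPM in the distal and 2.69 and 12.6 CPM in the proximal libraries.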

How the results depend on the processing

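The counts of segment genes rest on the rule and on each library. At 4-fold 384 genes were higher proximally and 322 distally. With at least 10 counts in every library 553 were higher distally, since genes below 10 counts in any library leave the test. Leaving out 1 library gave 1426 to 2066 proximal and 1635 to 1885 distal genes, as 1 library then holds a segment. The medians of 46 lists were recomputed under each alternative. Of these values 310 stayed within the spread between libraries, 100 moved further, and 4, in lists with a median past 2-fold, changed sign. Including medians nearer to 0, 15 of the 46 lists changed sign under at least 1 alternative. Leaving out 1 library gave a range of −0.96 to 3.43 for MHC class II, −4.51 to 2.62 for B cells (0.72 without proximal WT) and −0.31 to 2.91 for plasma cells, with the lowest value in each case without distal Nsun6-KO and the highest without distal WT. The log2 ratios of 134 named genes gave 984 values that stayed and 192 that moved. No gene called for a segment changed sign, which the 2-fold gap of the rule all but fixed in advance. Of the genes called for neither, 18 changed sign under at least 1 alternative. With a threshold of 5 TPM the shares of proximal and distal genes were 44.3% and 16.8% in liver (40.7% of all genes), 39.4% and 23.5% in spleen (58.5%), 43.7% and 22.9% in kidney (46.2%) and 35.0% and 17.2% in heart (46.1%). Among genes past 4-fold AGATAA was in 17.02% of proximal promoters, CAATAAA in 6.03%, TAATTA in 8.16% (6.81% distal), GTTAAT in 9.93% and CAAAGT in 24.1%. The cause of these shifts was not tested.

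For Nsun6-KO against WT, DESeq2 called 36 genes higher and 15 lower where edgeR called 0, but it was run on the 28573 genes with a count. On the 17680 genes tested by edgeR, in fits added after seeing the data, DESeq2 called 47 and 14 without and 180 and 122 with the replicate block. Leaving out any 1 library kept the edgeR count at 0, the lone library being assumed to vary like the pair. No source says that equal replicate numbers pair the samples. The number coincides with the segment, and the replicate 2 over replicate 1 ratios of the genotypes correlated at r = 0.57 across genes. With the replicate block edgeR called 0 genes higher and 0 lower, and DESeq2 with the block, added after seeing the data, 189 and 156. Low counts limit the distal set most, since 342 of its genes stayed below 10 counts in both proximal libraries.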

Other observations

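Several genes, chosen here after their values were seen, were highest in the distal Nsun6-KO library. Pla2g4c, which encodes a phospholipase, was at 7022 CPM there, against 34.4 CPM in distal WT and 71.2 and 22.7 CPM in the proximal libraries. Ang4, an antimicrobial ribonuclease, was at 719.6 CPM against 158 CPM in distal WT and 26.1 and 133 CPM proximally. Sprr2a3, an epithelial stress protein with near-identical copies, was at 1009 CPM against 212 CPM and 150.5 and 113 CPM, and Retnlb, a goblet cell product, at 17.8 CPM against 4.43 CPM and 1.83 and 2.33 CPM. Siglecf, a lectin of eosinophils that tuft cells also express, was at 40.7 CPM against 3.55 CPM and 5.78 and 17.4 CPM. The tuft cell channel gene Trpm5 was at 93.2 CPM against 8.70 CPM and 17.3 and 42.8 CPM. For Siglecf and Trpm5 the proximal Nsun6-KO value lay above both WT values as well. With 1 library per segment and genotype these values carry no test.

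The low counts of ileal Fabp6 outside the intestine were uneven: the spleen libraries numbered 1 held 104 counts in WT and 218 in Nsun6-KO, those numbered 2 held 0 and 2 counts, and the first WT liver and kidney libraries held 14 and 22.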
